A study of Mus musculus with 90 samples.

Results

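Serpind1, Gp2, Tex11, Sptssb, Tspan4, Aoc1, Kcnmb4 and Blvrb are 8 of the 17097 mouse genes measured in whole lungs after styrene inhalation. They were chosen on measured values of these same arrays, namely a higher level in exposed wild-type lungs at 1 and 4 weeks and a smaller or no change in lungs without Cyp2f2. The exposure changes of the 8 genes in every strain, and the differences of those changes from wild type, are therefore given as a description with no test. Each gene was read from the probe set that the platform annotation assigns to its symbol alone and, where there was more than 1, from the brightest.

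The animals were adult male C57BL/6 mice of 3 strains. Wild-type mice (WT) carried no engineered change named in the labels. Knockout mice (KO) were Cyp2f2-/-. Transgenic mice (TG) were also Cyp2f2-/- and carried the human genes CYP2F1, CYP2B6 and a gene that the labels write as SA13. The sources used here do not give the promoters of the human genes, and their expression was not analysed here. Mice of each strain were kept in clean air (0 ppm) or inhaled 40 ppm or 120 ppm styrene over 1 or 4 weeks, on 5 days of each week for 6 h, and were killed the next morning. Every group, 18 in all, comprised 5 mice, each with its own array. The number of arrays limits the precision.

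Styrene is a solvent that cytochromes P450 oxidise to reactive epoxides and ring-hydroxylated products. In mouse lung the main such enzyme is Cyp2f2, made by club cells, the secretory cells of the airway lining. The 8 genes belong to no single pathway. Serpind1 encodes heparin cofactor II, a plasma inhibitor of thrombin. Gp2 encodes a membrane-anchored glycoprotein that binds bacterial fimbriae, known from pancreatic acinar cells and from M cells of mucosal epithelia. Aoc1 encodes diamine oxidase, which degrades histamine and putrescine. Tspan4 is a tetraspanin found in migrasomes, and Kcnmb4 is an auxiliary subunit of the calcium-activated BK potassium channel. Sptssb is a small subunit of serine palmitoyltransferase, the first enzyme of sphingolipid synthesis. Blvrb reduces biliverdin and flavins, and Tex11 is a meiosis gene of the X chromosome known from male germ cells.

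Cyp2f2 itself separated the labelled strains. Its level lay between 12.73 and 13.39 log2 in the 30 WT lungs, between 11.53 and 12.28 in KO and between 11.58 and 12.13 in TG lungs, with no overlap with WT. A bright signal remained in KO and TG lungs, and the sources used here do not say where the probe set lies relative to the deletion. The lowest of the 90 array medians was 4.42 log2 and the highest 4.86. Dim means here that a group mean was under the lowest median, which was that of WT animal 3 at 120 ppm and 1 week. The next lowest median was 4.55. Group means from 4.42 to 4.86 lie among the array medians but are not called dim. Those of Serpind1 in WT controls, 4.84 at 1 week and 4.79 at 4 weeks, are of this kind. In limma 4 arrays had weights under 0.25, namely WT animal 3 at 120 ppm and 1 week, KO control animal 3 and TG control animal 5 at 1 week, and KO animal 1 at 40 ppm and 4 weeks. Where leaving these 4 arrays out turned the sign of a difference of the 8 genes given below, or moved it by over 1.5 times, the value without them follows, unless both values lie within 0.10 log2 of 0.

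Promoter sequences of 7 of the 8 genes, 250 bases before to 50 after the gene's start, were matched by gene in a RefSeq table of build GRCm38.p6. There were 10 such promoters, and Tex11 had no entry. They were searched on both strands for the antioxidant response element core TGACNNNGC, the xenobiotic response element core GCGTG and the E-box CACGTG. The 3 promoters below are shown because each holds a match, marked in capitals, and belongs to a gene that a result below turns on. Serpind1 (chr16:17331121-17331420, plus strand) is the gene whose WT change grew by over 1 log2 from 1 to 4 weeks at both doses. Tspan4 (chr7:141476130-141476429, plus strand) is the member closest in pattern to Dbp. Blvrb (chr7:27447728-27448027, plus strand) lies on the chromosome of Cyp2f2, as Tspan4 and Gp2 also do, and the genes between it and Cyp2f2 are described below.
Serpind1: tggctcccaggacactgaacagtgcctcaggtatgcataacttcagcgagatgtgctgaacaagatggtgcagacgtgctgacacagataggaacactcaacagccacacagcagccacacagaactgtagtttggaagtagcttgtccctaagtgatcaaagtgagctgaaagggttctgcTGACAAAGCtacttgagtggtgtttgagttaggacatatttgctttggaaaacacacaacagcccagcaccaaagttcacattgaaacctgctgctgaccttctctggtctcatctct
Tspan4: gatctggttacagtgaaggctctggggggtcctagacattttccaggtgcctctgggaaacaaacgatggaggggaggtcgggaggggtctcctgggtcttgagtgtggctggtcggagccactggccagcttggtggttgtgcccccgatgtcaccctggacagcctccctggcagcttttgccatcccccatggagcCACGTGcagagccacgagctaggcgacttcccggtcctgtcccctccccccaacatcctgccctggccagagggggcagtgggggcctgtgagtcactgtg
Blvrb: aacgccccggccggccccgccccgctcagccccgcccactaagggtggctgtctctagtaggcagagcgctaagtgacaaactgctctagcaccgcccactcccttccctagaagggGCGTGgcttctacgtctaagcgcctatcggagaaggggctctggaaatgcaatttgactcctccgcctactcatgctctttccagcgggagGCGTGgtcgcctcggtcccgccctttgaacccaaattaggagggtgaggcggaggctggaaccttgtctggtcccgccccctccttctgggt
The antioxidant core began at position -68 from the start of Serpind1, and 12.4% of 32851 promoters of this length held such a match. The E-box began at position -51 from the Tspan4 start shown and was present in 7.15% of promoters. Blvrb held 2 xenobiotic cores, at positions -133 and -42, and the other Tspan4 promoter held 1, against 32.4% of all promoters with at least 1. The remaining promoters of the 8 genes held none of these letters in this window. The promoter of Kcnmb4 was the richest in G and C of the 10, at 79.0%, above 98.6% of promoters, with 48 CpG pairs. These matches are a description of letters, and binding there was not measured.

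In WT lungs all 8 genes were higher than in week-matched controls at both doses and both times. The median difference over the 8 was 1.13 log2 at 40 ppm and 1.14 at 120 ppm after 1 week, and 1.20 and 1.37 after 4 weeks, where the median over all genes was 0.03, 0.00, 0.01 and 0.01. The choice of the genes fixes this direction, and nothing is read from it. After 4 weeks every one of the 5 exposed lungs lay above every one of the 5 control lungs for 8 of the 8 genes at each dose. After 1 week that was so for 4 of the 8 at each dose, and Serpind1, Gp2 and Aoc1 overlapped with their controls at both doses. The share of all genes with such a separation is not given here. The choice of the genes favours it, so nothing is read from these counts. In whole lung, more cells of a type that makes a transcript and more transcript per cell cannot be told apart.

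**Figure D1:**
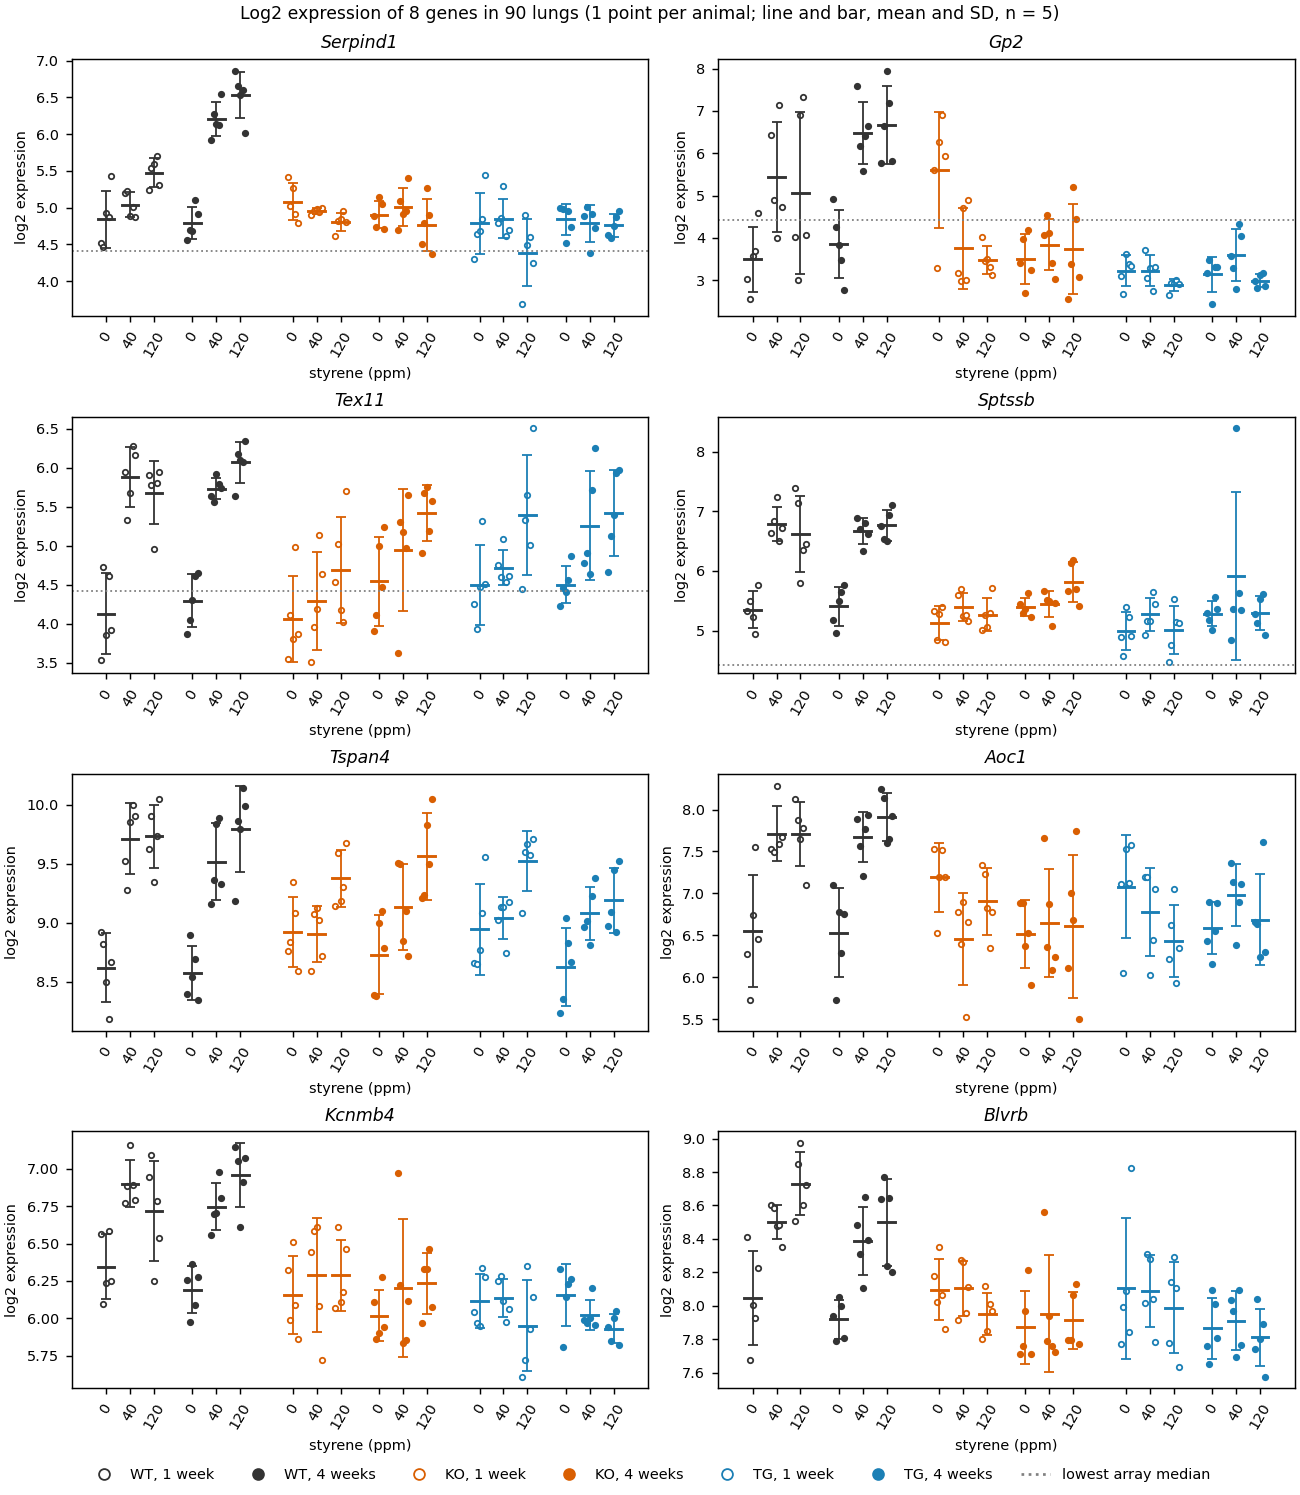
Log2 expression of the 8 genes (vertical axes) by styrene dose in ppm (horizontal axes), for WT, KO and TG lungs at 1 week (open points) and 4 weeks (filled points). Each point is 1 animal, lines and bars are the mean and SD of 5 animals, and the dotted line is the lowest array median, 4.42. Serpind1 in exposed WT lungs is highest at 4 weeks, Gp2 is dim in most groups, and Tspan4 and Tex11 are also higher in KO and TG lungs at 120 ppm.

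Serpind1 was the late gene of the set. In WT controls at 4 weeks the 5 lungs read 4.56, 4.70, 4.68, 5.11 and 4.92 log2. At 40 ppm they read 5.92, 6.28, 6.14, 6.12 and 6.54, and at 120 ppm 6.86, 6.65, 6.53, 6.60 and 6.01. All exposed lungs were above all controls, while the lungs of the 2 doses overlapped. The difference was 1.41 ± 0.17 (SE) at 40 ppm and 1.74 ± 0.17 at 120 ppm, or 2.66-fold and 3.33-fold. After 1 week it was 0.20 ± 0.17 and 0.63 ± 0.17. The 40 ppm lungs then read 5.19, 5.23, 4.89, 5.01 and 4.87, inside the control range of 4.46 to 5.43. The WT change was larger at 4 than at 1 week by 1.21 at 40 ppm and 1.10 at 120 ppm. Serpind1 was the only gene of the 8 with such a step at both doses: for the others the change grew by at most 0.67 at 40 ppm and, apart from Gp2 at 1.25, by at most 0.39 at 120 ppm. In KO and TG lungs its group means stayed between 4.38 and 5.08 and its differences from control were of both signs. The lowest, TG at 120 ppm and 1 week, was dim.

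Gp2 had the largest differences and the widest spread. At 4 weeks the WT controls read 4.93, 4.25, 3.83, 3.49 and 2.78 log2. The 40 ppm lungs read 7.58, 6.18, 5.58, 6.40 and 6.65, and the 120 ppm lungs 5.77, 6.64, 7.95, 7.19 and 5.83. No exposed lung overlapped with a control, and the differences were 2.62 ± 0.54 (SE) and 2.82 ± 0.54, or 6.16-fold and 7.06-fold over a control group mean that was dim. At 1 week and 120 ppm the 5 WT lungs read 4.03, 3.00, 6.90, 7.32 and 4.08, of which 2 lay above every control, and the difference was 1.57 ± 0.54. It was 1.01 without animal 4, 2.09 without animal 2, and 1.12 without animal 3, an array of low weight. Gp2 was dim in 13 of the 18 groups.

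The remaining group above the dim level besides the 4 exposed WT groups was an unexposed one. KO controls at 1 week read 5.61, 3.30, 6.26, 6.91 and 5.93 log2 for Gp2. Of these 5 lungs 4 lay above all 5 WT controls of that week, which read 2.56 to 4.60. KO controls at 4 weeks read 2.69 to 4.18. The KO differences of Gp2 were -1.85 at 40 ppm and -2.12 at 120 ppm at 1 week, and 0.34 and 0.23 at 4 weeks. The 4-week values rest on single animals: the first was 0.14 without control animal 3, and the second -0.13 without animal 3 of the 120 ppm group. Any statement on the KO change of Gp2 at 1 week rests on these controls.

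Aoc1 was 1.14 to 1.38 log2 higher in the 4 exposed WT groups, each ± 0.31 (SE). At 4 weeks the WT controls spanned 5.73 to 7.10, the 40 ppm lungs 7.20 to 7.93 and the 120 ppm lungs 7.60 to 8.24, with no overlap between exposed and control. Its KO and TG differences were -0.74, -0.29, -0.30 and -0.65 at 1 week (KO then TG, 40 then 120 ppm) and between 0.09 and 0.39 at 4 weeks. With the low-weight arrays left out, the TG value at 40 ppm and 1 week was -0.17, and the KO value at 40 ppm and 4 weeks turned from 0.13 to -0.12. The KO and TG values at 120 ppm and 4 weeks, 0.09 and 0.10, turned to -0.19 and -0.13 without animal 4 of the exposed group. The 1-week KO and TG controls had means of 7.19 ± 0.41 (SD, n = 5) and 7.08 ± 0.62, above the 6.55 ± 0.67 of WT controls, with which both overlapped.

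Tspan4 had higher group means at 120 ppm in all 3 strains. WT controls at 4 weeks read 8.39, 8.90, 8.54, 8.69 and 8.35 log2, and 120 ppm lungs 9.19, 9.87, 9.80, 10.15 and 9.99. KO controls spanned 8.38 to 9.10 (median 8.78), and KO lungs at 120 ppm 9.21, 9.23, 9.83, 9.50 and 10.05. Neither strain's exposed lungs overlapped with its controls. The difference was 1.22 ± 0.19 (SE) in WT and 0.83 ± 0.19 in KO, or 68.2% of the WT value, and 0.57 ± 0.19 in TG, or 46.3%. At 1 week and 120 ppm it was 1.11 in WT, 0.46 in KO and 0.58 in TG. At 40 ppm and 1 week it was 1.09 in WT but -0.02 in KO and 0.10 in TG, and the TG value was 0.25 without the arrays of low weight.

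Tex11 also had higher group means at 120 ppm in all 3 strains, largest in WT. WT controls at 4 weeks read 3.86, 4.05, 4.31, 4.61 and 4.65 log2, a dim group, and 120 ppm lungs 5.64, 6.17, 6.11, 6.07 and 6.35. KO lungs at 4 weeks read 3.90, 4.11, 4.99, 4.47 and 5.24 without styrene and 4.91, 5.68, 5.75, 5.19 and 5.57 at 120 ppm, which overlap. The 120 ppm difference at 4 weeks was 1.77 ± 0.32 (SE) in WT, 0.88 ± 0.32 in KO and 0.92 ± 0.32 in TG. At 1 week it was 1.55, 0.63 and 0.89, and the KO value fell to 0.37 without animal 5. The KO difference of 0.40 at 40 ppm and 4 weeks was 0.74 without animal 1, an array of low weight. For Tspan4 and Tex11 the KO change at 120 ppm was 40.3% to 68.2% of the WT change. The 40.3% was that of Tex11 at 1 week, where the 95% interval of the KO difference was -0.01 to 1.26. How far each gene depends on Cyp2f2 was not tested. For the other 6 genes the KO change at 120 ppm lay between -134% and 35.2% of the WT change. Without the arrays of low weight this separation was lost at 1 week, where the KO share was 32.4% for Tex11 and 44.7% for Kcnmb4, and the lowest share of the 6, that of Gp2, was -175%.

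Sptssb was 1.27 to 1.43 log2 higher in the 4 exposed WT groups, each ± 0.28 (SE), with no exposed lung in the range of its controls at either time. It alone of the 8 had a second probe set, dimmer, on which the WT differences were 0.98, 0.80, 0.86 and 0.84. In TG lungs at 40 ppm and 4 weeks the 5 animals read 4.85, 5.37, 8.39, 5.63 and 5.34. Animal 3 was above every other lung of the study for this gene, and it was also highest of its group on the second probe set, at 6.24 against a next value of 4.00. The TG difference there was 0.64, and 0.02 without that animal.

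At 4 weeks Kcnmb4 and Blvrb had the smallest WT differences of the 8, 0.55 and 0.77 log2 for Kcnmb4 and 0.47 and 0.58 for Blvrb at 40 and 120 ppm. At 1 week they were 0.55 and 0.37 for Kcnmb4 and 0.45 and 0.68 for Blvrb, where Serpind1 was lower still at 40 ppm. For Kcnmb4 at 4 weeks the WT controls spanned 5.98 to 6.36, the 40 ppm lungs 6.55 to 6.98 and the 120 ppm lungs 6.61 to 7.15. Its TG differences at 4 weeks were negative, -0.13 and -0.22, while its KO differences were 0.18 and 0.22. The 0.18 was -0.01 without KO animal 1, an array of low weight. For Blvrb at 4 weeks the WT controls spanned 7.79 to 8.05 and the exposed lungs 8.10 to 8.77, so that the nearest exposed lung stood just above the controls. Its KO and TG differences lay between -0.15 and 0.08 in all 8 comparisons, and without the arrays of low weight they reached 0.16, in TG at 40 ppm and 1 week. Of those at 1 week TG at 120 ppm turned from -0.12 to 0.06.

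**Figure D2:**
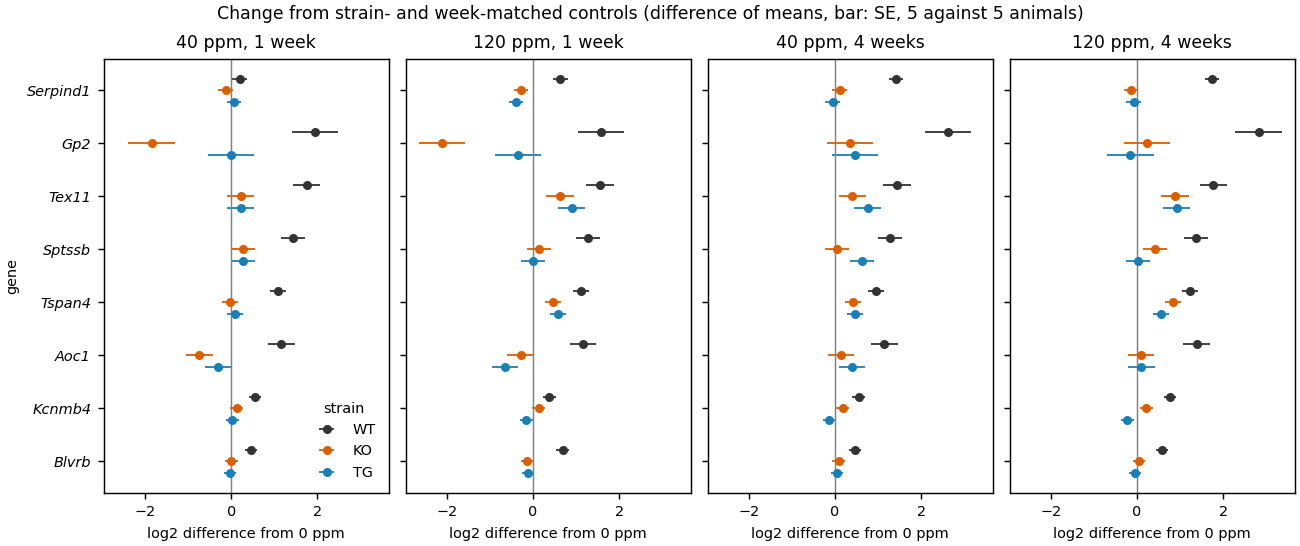
Difference of log2 group means from strain- and week-matched controls (horizontal axes) for each gene (vertical axis), 5 against 5 animals, at 40 and 120 ppm and at 1 and 4 weeks. Points are WT, KO and TG and bars are SE. All WT points are above 0, and the KO points of Tspan4 (0.83) and Tex11 (0.88) are the highest KO points at 120 ppm and 4 weeks.

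Ordered by group mean over the 18 groups, the 4 exposed WT groups filled the first 4 places for Tex11, Sptssb, Aoc1, Kcnmb4 and Blvrb. They filled 3 of the first 4 places for Serpind1, Gp2 and Tspan4, where a KO group stood among them: the 1-week controls for Serpind1 and Gp2, and the 4-week 120 ppm lungs for Tspan4. Few neighbours in these orders differed by more than the larger of their SDs. Of 17 steps there were 3 for Serpind1 (WT at 4 weeks 120 over 40 ppm, that over WT at 1 week and 120 ppm, and that over KO controls at 1 week). There was 1 step each for Sptssb, Aoc1, Kcnmb4 and Blvrb and 0 for Gp2, Tex11 and Tspan4. The largest step of Serpind1, 0.73, lay between WT at 40 ppm for 4 weeks and WT at 120 ppm for 1 week.

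Other contrasts than those by which the genes were chosen were tested with limma over all 17097 genes. They use some of the same arrays, and a choice of genes high in exposed WT lungs and little changed in lungs without Cyp2f2 also bears on these values. They are therefore not independent of the choice. Unexposed lungs were compared between strains with 10 animals each, both weeks averaged. None of the 8 genes passed an adjusted p of 0.05 between KO and WT (0.275% of all genes passed), TG and WT (0.287%) or TG and KO (0.135%). At an unadjusted p under 0.05 there were 1, 0 and 1 of the 8, against 1095, 1525 and 907 of all genes, and both were Gp2. Gp2 was 0.88 log2 higher in KO than in WT controls (95% interval 0.12 to 1.63, adjusted p = 0.65) and differed by -1.36 between TG and KO (interval -2.12 to -0.61, adjusted p = 0.202). The TG difference passed without KO control animal 2 of week 1, at -1.65 and an adjusted p of 0.0248. For the other 7 genes the 3 strain differences lay between -0.24 and 0.31, and the intervals reached -0.63 and 0.75.

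Unexposed lungs at 4 weeks were compared with those at 1 week over 15 animals each. None of the 8 genes passed, in a comparison where 17.2% of all genes did, and 2 of the 8 had an unadjusted p under 0.05, against 5018 of all genes. The 4-week minus 1-week difference was -0.20 ± 0.08 (SE) for Blvrb (-0.12 without the arrays of low weight), with an adjusted p of 0.0832, and -0.40 ± 0.18 for Aoc1, with an adjusted p of 0.115. Blvrb passed when any 1 of KO control animal 4 of week 4, TG control animal 1 of week 1 or WT control animal 2 of week 1 was left out, with adjusted p-values from 0.0379 to 0.0436. Aoc1 passed without TG control animal 2 of week 1 (adjusted p = 0.045).

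Within exposed WT lungs, 120 ppm was compared with 40 ppm. None of the 8 genes and 0% of all genes passed at 1 week, and again none of the 8 and 0% at 4 weeks. At an unadjusted p under 0.05 there were 1 and 0 of the 8, against 873 and 365 of all genes. The 1 was Serpind1, higher at 120 ppm by 0.44 at 1 week (95% interval 0.11 to 0.77, adjusted p = 0.869) and by 0.33 at 4 weeks (interval -0.01 to 0.66). At 4 weeks all 8 differences were positive, from 0.09 for Sptssb to 0.34 for Tex11, with a median of 0.23 against 0.00 over all genes. The genes were chosen as high in exposed WT lungs, so these signs are not independent of the choice. No trend with dose is read from them. At 1 week they ranged from -0.38 for Gp2 to 0.44 for Serpind1. The interval for Gp2 at 1 week, -1.44 to 0.69, allows a sizeable difference in either direction, and the value was -0.83 without animal 3 of the 120 ppm group.

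The 120 ppm change of TG lungs was compared with that of KO lungs, a contrast with no WT array. None of the 8 genes and 0% of all genes passed at 1 week, and likewise none of the 8 and 0% at 4 weeks. At an unadjusted p under 0.05 there was 1 of the 8 at each time, against 504 and 359 of all genes. At 1 week it was Gp2, with a TG change 1.77 higher than that of KO, which rests on the KO controls described above. At 4 weeks it was Kcnmb4, with a TG minus KO difference of -0.44 (95% interval -0.86 to -0.02). The differences of Tspan4 and Tex11 were 0.13 and 0.27 at 1 week and -0.27 and 0.04 at 4 weeks, with intervals up to 1.16 for Tex11.

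Lists of non-member genes related to the 8, with 172 genes measured, were counted in the WT comparisons. At 1 week, 17 of the 172 were higher and 1 lower at 40 ppm, where 3.82% of all genes were higher and 0.854% lower. At 120 ppm, 19 were higher and 2 lower, where 3.94% and 2.85% of all genes were. The shares higher were 9.88% and 11.0% of the 172. At 4 weeks none passed at 40 ppm with limma, where 0.0877% of all genes were higher and 0.0643% lower, and 13 of the 172 had an unadjusted p under 0.05. At 120 ppm 4 were higher and 0 lower, where 0.298% and 0.14% of all genes were.

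The 4 genes that were higher at 120 ppm and 4 weeks came from 3 lists. When any 1 of the 10 lungs compared was left out, 2 to 3 of the list genes passed. Procr, the endothelial protein C receptor, was higher by 0.64 ± 0.15 (SE, adjusted p = 0.0199) and was 1 of 22 thrombin and serpin genes. At 1 week 4 of those 22 were higher at 40 ppm, namely Fgg, the fibrinogen gamma chain, by 1.31 over a dim control mean, F10 by 0.81, Procr by 0.80 and F7 by 0.73. Ccl20, a chemokine of follicle-associated epithelium, was higher by 1.05 ± 0.20 (adjusted p = 0.00119) over a dim control mean. It was 1 of 14 genes related to M cells and Gp2. Nqo1 and Cbr3, reductases and targets of the antioxidant factor Nrf2, were higher by 0.76 ± 0.18 (adjusted p = 0.0224) and 0.71 ± 0.14 (adjusted p = 0.00214). They were 2 of 18 Nrf2 targets, of which 5 were higher at 1 week and 40 ppm and 8 at 120 ppm.

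In the other 6 lists, with 118 genes, those that passed did so at 1 week alone, and 6 of the 118 were higher at each dose (5.08%, against the 3.82% and 3.94% of all genes given above). Of 18 meiosis genes Syce2 and Rec8 were higher at both doses, by 0.53 to 0.78, and 14 of the 18 were dim in WT controls at 1 week. Of 29 sphingolipid genes Sptlc3, a catalytic partner of the Sptssb subunit, was higher at 40 ppm by 0.70 and Ormdl2, a regulator of that enzyme, at 120 ppm by 0.30. Of 24 other tetraspanins none was higher, Tspan13 was lower at both doses (-0.25 and -0.28) and Tspan18 at 120 ppm (-0.73). Of 18 polyamine and histamine genes Hdc, which makes the histamine that Aoc1 degrades, was higher by 0.72 and 0.52. Of 10 BK channel genes only the dim Lrrc52 passed, at 40 ppm. Of 19 heme genes Hmox2 was higher at both doses, by 0.28 and 0.40, and Blvra, the other biliverdin reductase, at 120 ppm by 0.34.

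Markers of other tissues that make some of these transcripts were low. All 10 measured hepatocyte markers and all 10 male germ cell markers were dim in every WT group. Of 10 pancreatic acinar markers 7 were dim in every WT group, and Cela1, Ctrl and Cpb1 were not. Ctrl was the one marker of these 3 lists to pass in WT lungs, lower at 120 ppm and 1 week (-0.48).

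Markers of dividing cells were higher at 1 week and had medians below 0 at 4 weeks. Of 15 proliferation markers 14 were higher at 1 week at each dose, where 3.82% and 3.94% of all genes were, with median differences of 1.76 and 1.84 log2. At 4 weeks 0 of the 15 passed with limma at either dose, with medians of -0.17 and -0.41, and 0 and 6 had an unadjusted p under 0.05. Their mean level per animal at 1 week was 4.39 to 4.96 in WT controls, 6.09 to 6.63 at 40 ppm and 4.80 to 7.91 at 120 ppm. The 4.80 came from animal 3, an array of low weight, whose 8 genes averaged 0.65 above their mean over all 90 animals, within the 0.49 to 0.97 of its group.

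Markers of other cell types moved at 1 week as well. Over the 16 cell type lists 29 of 169 markers passed at 40 ppm and 37 at 120 ppm (17.2% and 21.9%, against 4.67% and 6.79% of all genes in either direction). Without the proliferation list it was 11 higher and 4 lower of 154 at 40 ppm, and 13 higher and 10 lower at 120 ppm. Of 10 alveolar type II markers 5 and 4 were higher, by at most 1.15 for the cytokine Il33, and of 12 endothelial markers 2 and 5 were lower. Of 10 neutrophil markers Cd177 and Mmp8 were higher at both doses, Cd177 by 3.09 and 2.33. Of 13 goblet cell markers Agr2 alone was higher, by 2.81 and 2.39. Of 13 club cell markers Cyp2f2 was lower at both doses and Gabrp at 120 ppm. Of 10 alveolar macrophage markers 1 and 3 were higher, among them Ctsk at 1.25 and 1.26, and of 10 fibroblast markers 2 and 3 were higher and Pdgfra lower. At 4 weeks 0 of the 169 passed with limma at either dose, where 0.152% and 0.439% of all genes did, shares that amount to fewer than 1 of 169 markers, and 5 and 15 had an unadjusted p under 0.05. The part of cell makeup in the 8 genes' differences was not tested.

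**Figure D3:**
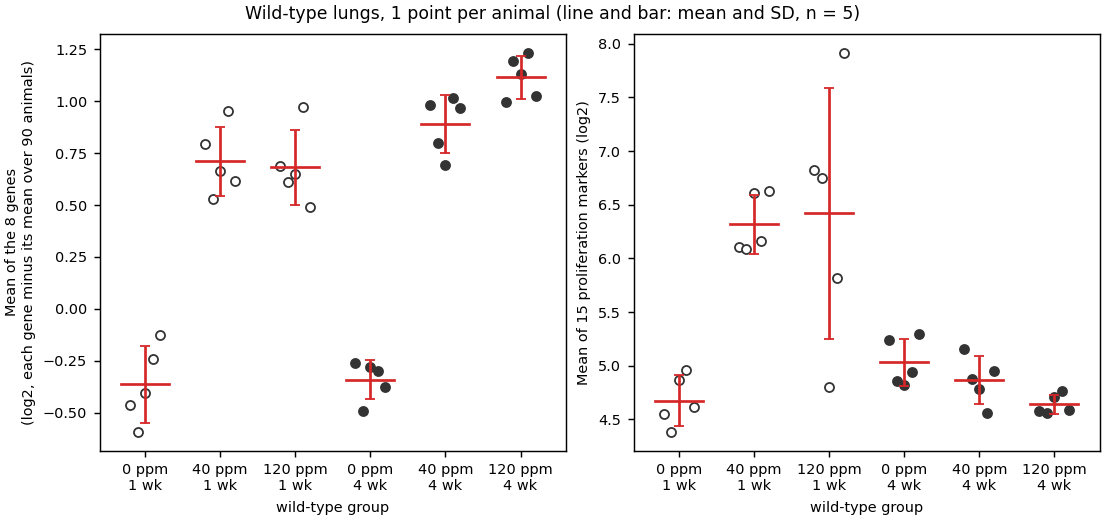
Left, the mean over the 8 genes per WT animal, each gene in log2 minus its mean over 90 animals; right, the mean log2 level of 15 proliferation markers; both by WT group (horizontal axis). Points are animals, lines and bars the mean and SD of 5. The 8 genes are higher in exposed lungs at both times, as their choice fixes, while the markers span 6.09 to 6.63 in 40 ppm lungs at 1 week and do not exceed 5.29 at 4 weeks.

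For each of the 8 genes the other genes with the most similar pattern were found by Pearson's r over the 18 group means, among 11476 genes not dim in their highest group. This r describes patterns that share the same arrays and has no test. Tspan4 was most like Dbp (r = 0.977), a transcription factor of clock output, then Flot1 (0.95) and Anxa7 (0.949). Tex11 was most like Per3 (0.962), a period gene of the circadian clock, then Nanp (0.931) and Nptn (0.929). In WT lungs Dbp was higher by 3.36, 3.42, 2.73 and 3.33 log2 in the 4 exposed groups. At 120 ppm its differences at 1 and 4 weeks were 1.65 and 2.44 in KO and 1.98 and 2.12 in TG lungs, each ± 0.43 (SE). Per3 was higher in WT by 1.43, 1.38, 0.99 and 1.27. Its differences at 120 ppm were 0.73 and 0.97 in KO and 1.00 and 0.87 in TG, each ± 0.21 (SE). Both genes were picked by likeness over these same group means, so their changes are given as a description with no test.

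Serpind1 was most like Ccl20 (r = 0.952), Opn3 (0.916) and Azgp1 (0.91), and Gp2 like Azgp1 (0.916), 1700001L19Rik (0.898) and Ctxn1 (0.886). Aoc1 was most like Cmbl (0.953), Spa17 (0.921) and Cxcl17 (0.912), and Sptssb like Mtmr7 (0.944), Ttc30b (0.921) and Procr (0.92). Kcnmb4 was most like 1700001L19Rik (0.941), Wdr54 (0.926) and Coq8b (0.926). Blvrb was most like Vnn1 (0.96), the pantetheinase vanin, then Urah (0.956) and Retnla (0.953), a gene of alternatively activated macrophages and airway epithelium. The nearest genes of Serpind1 and Gp2 thus shared Azgp1, and those of Gp2 and Kcnmb4 shared 1700001L19Rik.

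**Figure D4:**
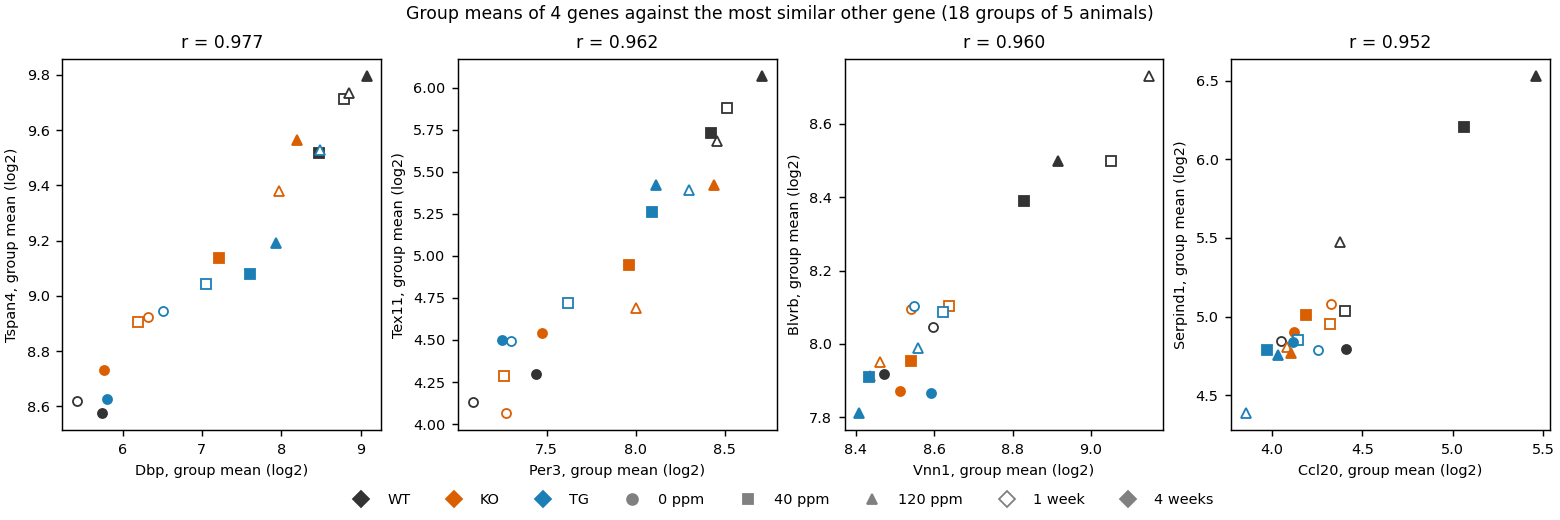
Group means in log2 of Tspan4, Tex11, Blvrb and Serpind1 (vertical axes) against the gene most like each, Dbp, Per3, Vnn1 and Ccl20 (horizontal axes). Each point is 1 of 18 groups of 5 animals, coloured by strain, shaped by dose, open at 1 week and filled at 4 weeks. KO and TG groups at 120 ppm lie above all control groups for Tspan4 and Tex11, for Tspan4 partly among exposed WT groups, while for Blvrb and Serpind1 none is above the highest control group.

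How animals of 1 group varied is separate from the group differences by which the genes were chosen. Deviations from the 18 group means were correlated over the 90 arrays, as a description. The 28 pairs of the 8 genes had a median r of 0.0967, from -0.266 to 0.466, with 20 above 0, and a median of 0.117 without the 4 arrays of low weight. The median over pairs of 1 of the 8 with any other gene was 0.0654. The highest pairs were Aoc1 with Kcnmb4 (0.466), Kcnmb4 with Blvrb (0.434) and Serpind1 with Blvrb (0.411). Tex11 with Tspan4 gave 0.351, and 0.461 without those 4 arrays.

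Tspan4 followed Dbp within groups too. Their deviations had r = 0.8 and rho = 0.818 over 90 arrays, and r = 0.805 without the 2 animals farthest from the median of Dbp. Within strains r was 0.822 in WT, 0.747 in KO and 0.859 in TG, over 30 animals each. For Tex11 with Per3 r was 0.629, rho 0.628, and 0.428, 0.709 and 0.716 in the 3 strains. Dbp and Per3 were looked at because their group means were most alike, after those values were seen.

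Of the cell type lists, those of airway epithelial cells had the highest correlations with Gp2 and Aoc1 within groups. The deviations of Gp2 correlated with the mean of 13 club cell markers at r = 0.701 (rho = 0.754) and with that of 13 goblet cell markers at 0.676 (rho = 0.72), against 0.439 with ciliated cell markers. Without the 2 farthest animals r was 0.716 and 0.695, and by strain it was 0.892, 0.754 and 0.342 for club and 0.754, 0.763 and 0.508 for goblet markers in WT, KO and TG. Single markers differed widely, from 0.18 for Scgb1a1, the main club cell secretoglobin, to 0.703 for the mucin Muc5b and 0.736 for the antimicrobial lectin Reg3g, and for goblet markers up to 0.734 for Agr2. Aoc1 gave 0.558 with club, 0.594 with goblet and 0.532 with ciliated markers. In WT it was 0.219, 0.297 and 0.549, and in TG 0.797, 0.825 and 0.624. Aoc1 also gave 0.56 with BK channel genes and 0.555 with Nrf2 targets, as high as with club markers, and -0.21 with Scgb1a1. Between WT groups the mean of the club markers went from 10.98 in controls to 11.10 and 11.01 in exposed lungs at 1 week. At 4 weeks it went from 11.12 to 11.08 and 11.19. The median difference of the goblet markers at 40 and 120 ppm was 0.35 and 0.17 at 1 week, where all genes had 0.03 and 0.00. At 4 weeks it was 0.05 and -0.003. For the ciliated markers it was 0.24 and 0.09 at 1 week, and 0.07 and 0.14 at 4 weeks. The part of cell makeup in these correlations was not tested.

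Blvrb deviations correlated at 0.711 with the 19 other heme genes and at 0.711 with the 18 Nrf2 targets. They also did so at 0.719 with the mostly dim pancreatic acinar markers and at -0.421 with the array median, a technical measure whose part was not tested. Kcnmb4 gave 0.585 with the heme genes. For Gp2 and Aoc1 the correlations with the array median were -0.0699 and -0.00866.

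Blvrb, Gp2 and Tspan4 lie on chromosome 7, as Cyp2f2 does. The genes between were looked at for Blvrb alone. RefSeq of build GRCm38.p6 places 16 genes between Blvrb and Cyp2f2, 12 of them protein-coding, and 10 of the 16 were measured. Between unexposed KO and WT lungs Blvrb differed by 0.00 ± 0.10 (SE, 95% interval -0.20 to 0.20). Of the 10 genes between, Mia alone passed, lower in KO (-0.79 ± 0.13, adjusted p = 9.71e-05), where 0.275% of all genes passed. In WT lungs at 120 ppm and 1 week Ltbp4 alone of the 10 passed, lower in exposed lungs (-0.49, adjusted p = 0.0425), and at 4 weeks 0 of the 10 passed with limma. Coq8b, 1 of the 3 genes most like Kcnmb4, also lies between and differed by 0.24 and 0.33 in these comparisons (adjusted p = 0.223 and 0.438).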

How the data were processed

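The deposited table holds log2 expression values for 45141 probe sets and 90 arrays (Affymetrix HT MG-430 PM). The authors made these log2 values with RMA and Partek, per the submitters' processing notes, which give no versions. Per the labels' protocols, lungs were extracted in Trizol, purified on RNeasy columns and labelled with a kit for 3' IVT. Groups and replicate numbers come from the labels, which call the replicates biological.

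The platform annotation gives 28898 probe sets 1 gene symbol, and the brightest per symbol gave 17097 genes. All 90 arrays entered 1 limma model (version 3.58.1, R 4.3.3) with a mean per group, 72 residual degrees of freedom and empirical Bayes tests. Adjustment was by Benjamini-Hochberg across the 17097 genes. The fit was tested on simulated data. The 8 genes and all gene lists were chosen with earlier results of these data known. Beside the 8 genes and Cyp2f2, the text names the 3 genes most similar to each over group means, up to 4 genes per related list and comparison by size among those that passed, and genes between Blvrb and Cyp2f2. Cell type markers were named after their values were seen.

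The alternatives tried were a second quantile normalization, a filter on dim genes (mean under the 40th percentile), the probe sets' median in place of the brightest, a fit restricted to the groups compared, array weights, robust variance moderation with a trend on intensity, the removal of arrays with weights under 0.25, a replicate block, and the removal of single animals.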

Additional observations from a re-analysis of the deposited data

Results flagged for a closer look

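In 8 of the 144 combinations of a gene and a group, 1 animal stood apart from the other 4, with a gap to its nearest neighbour above 0.71 of the group's range. Chance alone does so in about 1 in 20 groups. The widest in log2 was Sptssb in TG animal 3 at 40 ppm and 4 weeks, at 8.39 against a next value of 5.63. Both probe sets of the gene were highest in this lung. Tex11 in WT animal 3 at 120 ppm and 1 week was low, at 4.96 against 5.78, and Blvrb in KO animal 1 at 40 ppm and 4 weeks was high, at 8.56 against 7.94. Both are arrays of low weight. Aoc1 in WT animal 3 at 40 ppm and 1 week was high, at 8.29 against 7.67. Kcnmb4 in TG animal 4 at 40 ppm and 4 weeks was high, at 6.20 against 6.00. TG animal 1 at 120 ppm and 1 week was low for both Tspan4, at 9.09 against 9.57, and Gp2, at 2.64 against 2.92. Gp2 in TG control animal 3 at 4 weeks was low, at 2.43 against 3.18, and both Gp2 groups are dim.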

How the results depend on the processing

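No difference of the 8 genes in WT lungs changed sign under any alternative run, and the counts of 0 in the 8 tested comparisons stayed 0 except with single animals left out (0 to 1 between unexposed TG and KO, and 0 to 1 between 4 and 1 week). With dim genes left out, which removes Serpind1, Gp2 and Tex11, the median WT difference of the remaining 5 was 0.94 at 40 ppm and 1.22 at 120 ppm after 4 weeks. Counts of related-list genes that passed were 18, 21, 0 and 4 (40 and 120 ppm at 1 week, then at 4 weeks) and depended on the setting. Without arrays of low weight they were 39 at 120 ppm and 1 week and 1 at 40 ppm and 4 weeks, and with array weights 38 at 40 ppm and 1 week and 4 at 40 ppm and 4 weeks. With only the arrays compared they were 1 at 120 ppm and 1 week and 2 at 120 ppm and 4 weeks, from fewer samples. Leaving out 1 animal gave 7 to 17, 10 to 27, 0 and 2 to 3. The lowest values at 1 week came without WT control animal 2, and the 27 without animal 3 at 120 ppm. Other causes were not tested.

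With a replicate block the medians were 1.13, 1.14, 1.20 and 1.37, the counts of 0 stayed, and no call of the 8 genes changed side. Animals of the same number correlated at a mean of 0.0557, those of other numbers at -0.0129, and 344 of 765 same-numbered pairs exceeded 0.1. The labels tie the numbers to nothing shared, so the numbers were not taken to pair animals in the main fit. The correlations do not decide whether they should be. Of 90 animals 41 were closest to their own number, above the 18 of an even spread over 5 numbers, which is a hint from the data that numbers share something. Gp2, dim in 13 of 18 groups, and the 5 animals per group limit what these arrays resolve.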
